A study of Mus musculus with 6 samples.

Results

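The genes described here are the 199 known long noncoding RNA (lncRNA) genes of a gene-level read count table from mouse brain microglia, chosen as every line that the authors typed as a known lncRNA gene among 38207 genes and loci. The table comes from nanopore cDNA sequencing of 6 libraries, each from a pool of 30 wild-type mice. Of these pools, 3 followed tMCAO, the usual abbreviation for transient occlusion of the middle cerebral artery and a mouse model of stroke, and 3 followed sham surgery. The series' own text calls the material isolated microglia, while the protocol speaks of tissue. The sources used here give no strain, age, sex or time after surgery, and no account of how cells were isolated. Every pool is brain labelled as microglia, and a pool averages over its mice. In such bulk samples, fewer cells of a type and less RNA per cell cannot be told apart. The labels do not say that the pools were prepared independently, so p-values measure only the spread between these pools, which may be technical.

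Long noncoding RNAs are transcripts that resemble messenger RNAs in length and splicing but are not annotated as coding for a protein. Some act at their own locus on a neighbouring gene, and some are mainly carriers of small RNAs. Host genes hold small nucleolar RNAs (snoRNAs), mostly in introns, or a precursor that is cut into a microRNA. The snoRNAs guide the chemical modification of ribosomal RNA. In macrophages and microglia lncRNAs are studied for roles in inflammation and cell survival. Of the 199 genes, 139 carried an Ensembl mouse gene ID and 60 carried an ID of the NONCODE database alone. GENCODE M21, a mouse gene annotation, classed the 139 as 52 lincRNAs (genes lying between coding genes), 40 antisense genes, 34 processed transcripts and 13 genes sharing a bidirectional promoter. Of 18 well-known lncRNAs looked for by name, 3 (Gas5, Snhg1 and AW112010) were among the 199, and the others, such as Malat1, Neat1 and Meg3, were not analysed here.

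The promoters of 4 of the genes that rose after tMCAO are shown first, because 2 of them, AU020206 and Lockd, were the lncRNA rises that stayed called when each library was left out in turn, and the others are hosts of small RNAs. Each window runs from 250 bases before to 50 bases after the start in RefSeq (GRCm38.p6), 5′ to 3′ on the gene's strand. The capitals mark matches, on either strand, to any of 5 motifs: the CCAAT box (CCAAT), AP-1 (TGANTCA), the cyclic AMP response element or CRE (TGACGTCA), the E-box (CACGTG) and PU.1 (GAGGAAGT).
AU020206, chr7:75782071-75782370, minus strand: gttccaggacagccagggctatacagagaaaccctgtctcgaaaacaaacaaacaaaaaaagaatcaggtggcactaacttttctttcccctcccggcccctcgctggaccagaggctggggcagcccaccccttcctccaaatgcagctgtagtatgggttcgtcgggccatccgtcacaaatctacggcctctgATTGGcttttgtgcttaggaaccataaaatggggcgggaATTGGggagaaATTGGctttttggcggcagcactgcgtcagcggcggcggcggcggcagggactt
Lockd, chr6:134928842-134929141, plus strand: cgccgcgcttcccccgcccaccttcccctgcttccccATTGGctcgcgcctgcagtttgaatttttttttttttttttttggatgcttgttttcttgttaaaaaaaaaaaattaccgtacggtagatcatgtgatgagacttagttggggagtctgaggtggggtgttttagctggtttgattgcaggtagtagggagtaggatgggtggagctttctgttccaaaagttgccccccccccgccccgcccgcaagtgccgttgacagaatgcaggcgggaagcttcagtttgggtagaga
Mir22hg, chr11:75461289-75461588, plus strand: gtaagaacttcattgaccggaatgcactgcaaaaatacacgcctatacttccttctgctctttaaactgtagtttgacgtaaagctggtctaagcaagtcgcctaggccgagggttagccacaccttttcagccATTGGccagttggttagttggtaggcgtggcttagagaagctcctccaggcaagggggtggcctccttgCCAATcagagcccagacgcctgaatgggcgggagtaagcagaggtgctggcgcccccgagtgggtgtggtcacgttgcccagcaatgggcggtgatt
Snhg15, chr11:6528711-6529010, minus strand: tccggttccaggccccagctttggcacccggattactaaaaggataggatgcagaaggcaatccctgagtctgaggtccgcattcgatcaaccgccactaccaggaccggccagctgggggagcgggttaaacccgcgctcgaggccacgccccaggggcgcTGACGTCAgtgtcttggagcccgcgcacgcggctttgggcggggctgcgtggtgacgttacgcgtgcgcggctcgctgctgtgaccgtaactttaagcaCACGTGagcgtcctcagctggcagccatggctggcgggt

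The AU020206 window held 3 CCAAT boxes on the opposite strand, at -54, -15 and -4, where positions give the leftmost base printed and the base at the start is 1. Lockd had 1 CCAAT box at -213 and Mir22hg had 2, at -116 and -47. The Snhg15 window held a CRE at -88 and an E-box at 12. None of the matches overlapped another. Among 32851 RefSeq promoter windows of the same length, the CCAAT box was in 37.4%, AP-1 in 7.81%, the CRE in 1.79%, the E-box in 7.15% and PU.1 in 3.2%. These matches describe letters in a window. The motifs and the promoters shown were chosen with the results known, and other motifs had been looked at before these 5 were kept.

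Sequencing gave 2030550, 1855495 and 1877780 counts in tMCAO pools 1 to 3 and 2371235, 2522812 and 2614512 counts in sham pools 1 to 3, so that 1 count was about 0.4 to 0.5 CPM (the count scaled to a fixed library total, as the authors deposited it). The 199 genes together took 0.412%, 0.423% and 0.430% of the counts in the tMCAO pools, against 0.447%, 0.390% and 0.441% in the sham pools. The means were 0.422% ± 0.00873 after tMCAO and 0.426% ± 0.0316 after sham surgery (SD, n = 3 each). The groups overlapped, and the difference of -0.00445 percentage points gave p = 0.9 in a two-sided exact permutation test, whose smallest possible p is 0.1. Its sign turned without tMCAO pool 1, sham pool 1 or sham pool 3, to 0.000241, 0.00622 and 0.00305. A count was recorded for 190, 188 and 187 of the genes in the tMCAO pools and for 190, 190 and 189 in the sham pools, and 170 had one in every pool. Counts were concentrated: the 10 genes with the most held 47.6% of the 56270 counts.

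Between tMCAO and sham pools, 7 lncRNA genes rose and 14 fell. Of the 199 genes, 113 passed the filter on low counts and were tested. The other 86 had a median of 26.5 counts over the 6 libraries together. The test was edgeR's quasi-likelihood F test on all 13127 genes and loci that passed the filter, with Benjamini-Hochberg adjustment and a call at an adjusted p under 0.05. The 21 called genes were 18.6% of those tested, near the 18.1% called among all genes and loci. Rises were called for 9.17% and falls for 8.96% of all genes and loci. The groups' deposited CPM did not overlap for 41 of the 113 genes, against 37.8% of all those tested, and all 21 called genes were among the 41. The median log2 fold change of the 113 was -0.11, beside 0.00 over everything tested. Scaling by library totals alone moved that overall median to 0.11 and the lncRNA median to 0.01, with 7 rises and 9 falls called. These calls were 14.2% of the lncRNA genes tested, beside 17.9% of all genes and loci. The authors' lncRNA loci outside the annotation numbered 229, of which 145 were tested, 8 rose and 30 fell.

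Call by call, 6 of the 21 stayed below the threshold without each library in turn. They were AU020206, Lockd, 2310040G24Rik, Gm38843 and 2 genes with a NONCODE ID alone. The other 15 lost the call without at least 1 library. With sham pool 1 left out 7 lncRNA genes were called, with sham pool 2 left out 11, and with tMCAO pool 2 left out 13. These were 6.14%, 9.65% and 10.4% of the lncRNA genes tested in each fit, beside 9.31%, 14.3% and 11.1% of all genes and loci. DESeq2 called 12 and limma voom 13, where they called 12.9% and 14.8% of all genes and loci.

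**Figure D1:**
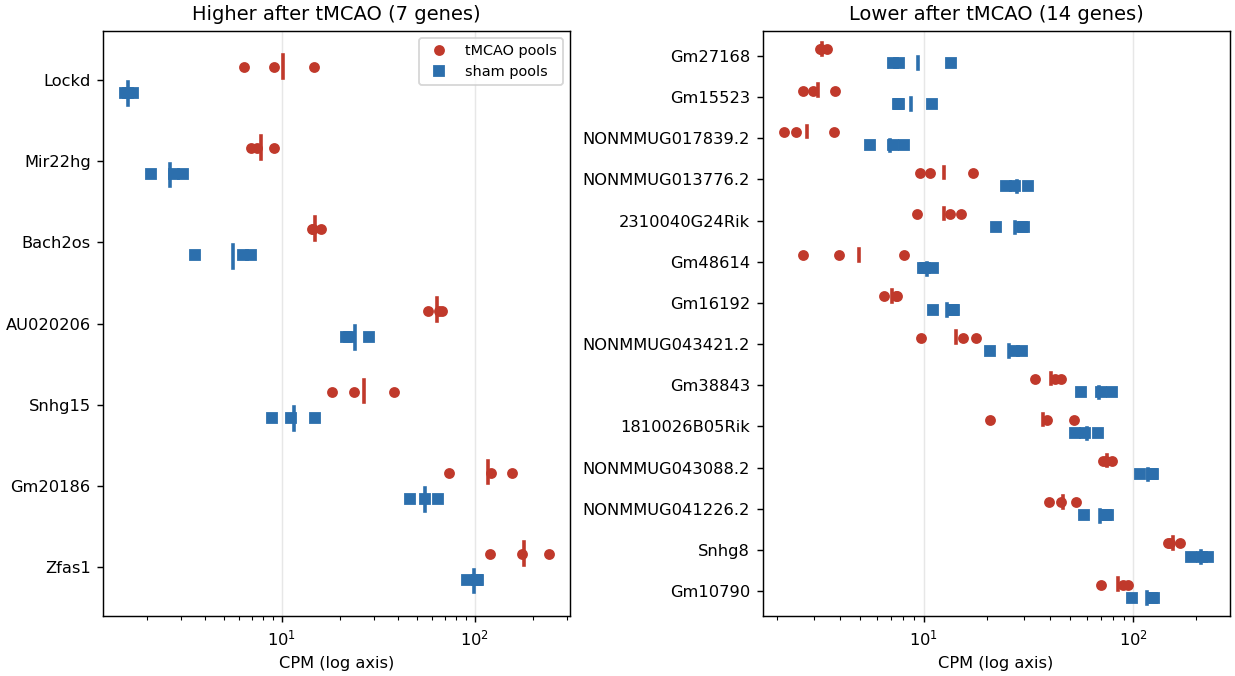
CPM in each pool (log axis) of the 7 lncRNA genes called higher and the 14 called lower after tMCAO, with red circles for tMCAO pools, blue squares for sham pools and vertical ticks for group means. The groups' values do not overlap for any of the 21 genes, and Lockd has the widest gap among those that rose.

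AU020206, a lincRNA with no role stated here, rose most firmly. It had 57.1, 67.9 and 65.5 CPM in tMCAO pools 1 to 3, against 22.4, 21.4 and 28.3 CPM in sham pools 1 to 3. Every tMCAO pool was well above every sham pool. AU020206 had a log2 fold change of 1.28 ± 0.20 (SE) and an adjusted p of 0.000909 in edgeR's test. Its nearest coding gene by start site, Klhl25, had a log2 fold change of 0.99 ± 0.36 that did not pass (edgeR adjusted p = 0.0753).

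Lockd is transcribed downstream of Cdkn1b, which encodes the cell cycle inhibitor p27, and its locus has been studied in mouse as an enhancer of that gene. Lockd had 14.8, 9.16 and 6.39 CPM in the tMCAO pools and 1.69, 1.59 and 1.53 CPM in the sham pools. The sham pools lay close together and the tMCAO pools were spread, with pool 1 highest. Its log2 fold change was 2.50 ± 0.45, the largest rise among the 113 tested (edgeR adjusted p = 0.00245). Cdkn1b itself had 56.1, 39.3 and 44.2 CPM in tMCAO pools, against 21.9, 34.1 and 24.1 CPM in sham pools. Its groups also did not overlap, but its log2 fold change of 0.68 ± 0.24 did not pass (edgeR adjusted p = 0.0658).

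Bach2os lies opposite Bach2, which encodes a transcription factor best known in lymphocytes. Bach2os had 14.3, 14.6 and 15.98 CPM in tMCAO pools and 6.33, 3.57 and 6.88 CPM in sham pools. The tMCAO pools agreed closely and stood well above the sham pools. This gave a log2 fold change of 1.30 ± 0.33 with an edgeR adjusted p of 0.0158. Without sham pool 2, its lowest library, the adjusted p was 0.0529, in a range of 0.00351 to 0.0725 over 16 alternative analyses. Exons of the pair overlap on opposite strands, and the use of strand in counting is not given, so their reads cannot be told apart. Bach2 had a log2 fold change of 0.14 ± 0.35 (edgeR adjusted p = 0.815).

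Gm20186, a lincRNA, shares a start region with Lsm8, which encodes a protein of the RNA splicing machinery. Gm20186 had 73.4, 122 and 156 CPM in tMCAO pools and 55.2, 46.0 and 64.6 CPM in sham pools. The groups stood apart, though tMCAO pool 1 was nearer to sham pool 3 than to tMCAO pool 3. The log2 fold change was 0.98 ± 0.27 (edgeR adjusted p = 0.0320). The call was lost without sham pool 1, sham pool 2, sham pool 3 or tMCAO pool 2, with adjusted p from 0.0657 to 0.107, and over all 16 alternatives p ran from 3.16e-06 to 0.130. Lsm8 had 40.4, 37.2 and 43.1 CPM in tMCAO pools and 39.6, 41.6 and 41.7 CPM in sham pools, and it did not pass (log2 fold change -0.14 ± 0.19, edgeR adjusted p = 0.645).

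Mir22hg is the host transcript of miR-22, and of 20 listed microRNA hosts it was the 1 found among the known lncRNA genes. It had 6.89, 9.16 and 7.46 CPM in tMCAO pools, against 2.11, 2.77 and 3.06 CPM in sham pools. These levels rest on 14, 17 and 14 counts after tMCAO and 5, 7 and 8 counts after sham surgery, and the groups did not overlap. Mir22hg rose by a log2 fold change of 1.42 ± 0.39 (edgeR adjusted p = 0.0243). Without sham pool 1, 2 or 3 or tMCAO pool 2 the adjusted p was 0.0544 to 0.112, and over the 16 alternatives it ran from 0.0107 to 0.117, the highest with DESeq2. Both mature products of the hairpin inside the gene are printed because their bases 2 to 8, in capitals, are the seeds by which they pair with target messages. The libraries count gene reads, not mature microRNAs.
miR-22-5p: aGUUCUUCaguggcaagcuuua
miR-22-3p: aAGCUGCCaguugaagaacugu

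These come from RefSeq (GRCm38.p6), at chr11:75463734-75463755 and chr11:75463772-75463793 on the plus strand. The seeds differ, so the pair forms no seed family. In GENCODE M21 an exon of Mir22hg overlaps one of Tlcd2 on the same strand. Tlcd2 had 0.985, 1.62 and 3.20 CPM after tMCAO and 1.27, 1.19 and 1.53 CPM after sham surgery, too few counts for the test. Snhg20 and 2900076A07Rik also hold an annotated microRNA gene, and neither passed (edgeR adjusted p = 0.444 and 0.802).

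Among snoRNA hosts, Zfas1 and Snhg15 rose, Snhg8 fell and the rest did not pass. GENCODE M21 places snoRNA genes inside 14 of the 199 lncRNA genes, all of which were tested, with a median log2 fold change of 0.09. The 3 called are 21.4% of the 14, near the 18.1% called among all genes and loci. A written list of 23 snoRNA hosts gave 11 genes, all tested, with the same 2 rises and 1 fall (27.3% called), and a median of 0.28. Both lists overlap by design.

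Zfas1 lies opposite the 5′ end of Znfx1 and carries snoRNAs. It had 176, 243 and 120 CPM in tMCAO pools, against 103, 90.8 and 104 CPM in sham pools. The groups did not overlap, and tMCAO pool 3 came near the sham level. The log2 fold change was 0.73 ± 0.21 (edgeR adjusted p = 0.0278). The call was lost without sham pool 1, 2 or 3 or tMCAO pool 2 (adjusted p 0.0770 to 0.103, beside 0.000193 to 0.103 over the 16 alternatives). Znfx1, which encodes a helicase-like protein that senses viral RNA, had 44.8, 62.5 and 34.1 CPM after tMCAO and 14.8, 11.1 and 16.8 CPM after sham surgery. Both genes were highest in tMCAO pool 2, and Znfx1 rose by a log2 fold change of 1.60 ± 0.25 (edgeR adjusted p = 0.00105). Their exons overlap on opposite strands, so their reads cannot be told apart here.

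Snhg15, a host that is short-lived in many cells, had 23.6, 38.3 and 18.1 CPM in tMCAO pools and 8.86, 11.1 and 14.9 CPM in sham pools. The groups did not overlap, with tMCAO pool 3 and sham pool 3 closest to each other. Its log2 fold change was 1.06 ± 0.31 (edgeR adjusted p = 0.0294). Without sham pool 1, sham pool 2 or tMCAO pool 2 the adjusted p was 0.0650 to 0.145, in a range of 0.00161 to 0.145 over the 16 alternatives. Its nearest coding gene, Myo1g, encodes a myosin of blood cells. Myo1g had 25.1, 21.02 and 21.3 CPM in tMCAO pools and 13.1, 7.53 and 9.18 CPM in sham pools, and it rose by 1.06 ± 0.27 (edgeR adjusted p = 0.0176). That call was lost without sham pool 2 or 3 (adjusted p up to 0.0717).

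Snhg8 fell. It had 147, 167 and 150 CPM in tMCAO pools, against 229, 189 and 213 CPM in sham pools. All tMCAO pools were below all sham pools, by a small margin between tMCAO pool 2 and sham pool 2. The log2 fold change was -0.56 ± 0.15 (edgeR adjusted p = 0.0216). The call was lost without sham pool 1, sham pool 3 or tMCAO pool 1 (adjusted p 0.0595 to 0.104, beside 0.0136 to 0.104 over the 16 alternatives).

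Gas5, named for its abundance in growth-arrested cells, took more counts than any other of the 199 genes. It had 463, 544 and 484 CPM in tMCAO pools and 523, 427 and 474 CPM in sham pools. The groups overlapped throughout, and its log2 fold change of -0.05 ± 0.14 did not pass (edgeR adjusted p = 0.849). Snhg1 had 53.2, 65.8 and 35.7 CPM after tMCAO and 40.5, 37.3 and 36.0 CPM after sham surgery, a log2 fold change of 0.32 ± 0.22 that did not pass (edgeR adjusted p = 0.339). The gene that starts beside it in the other direction, Slc3a2, encodes the heavy chain of amino acid transporters. Slc3a2 rose by 0.81 ± 0.23 on the log2 scale (edgeR adjusted p = 0.0300). That call was lost without sham pool 1 or 3 or tMCAO pool 1 or 2 (adjusted p up to 0.137). Of the remaining hosts, 2410006H16Rik had a log2 fold change of 0.16 ± 0.15 and Snhg12 one of -0.13 ± 0.20, and neither passed (edgeR adjusted p = 0.517 and 0.712).

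**Figure D2:**
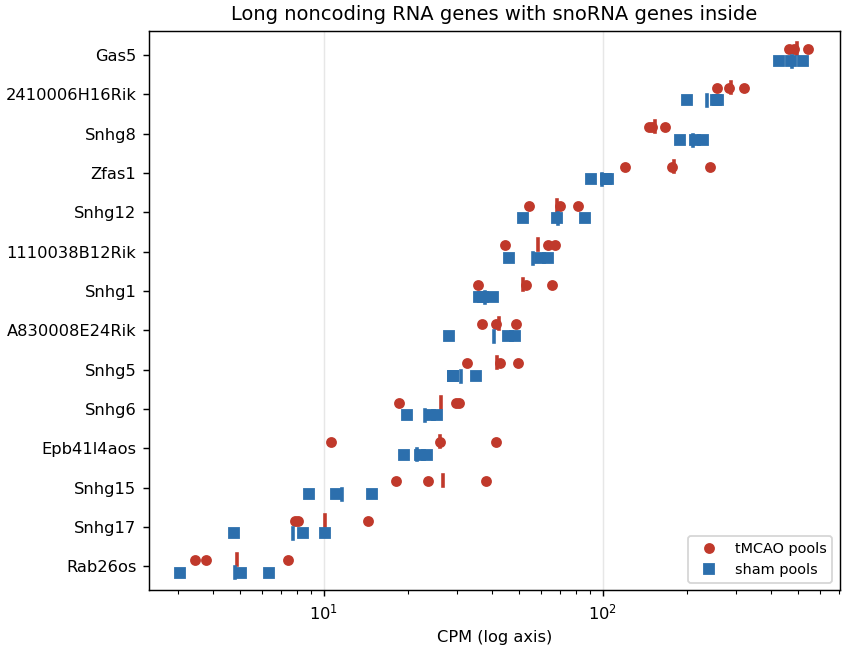
CPM in each pool (log axis) of the 14 lncRNA genes with annotated snoRNA genes inside, ordered by mean CPM, with red circles for tMCAO pools, blue squares for sham pools and vertical ticks for means. The groups separate for Zfas1, Snhg15 and Snhg8 and overlap for the others, Gas5 included.

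Many snoRNA host transcripts begin with a C followed by a run of pyrimidines, the 5′ terminal oligopyrimidine tract, which places translation under control of the growth regulator mTOR. The start windows below, 20 bases either side of a RefSeq start (GRCm38.p6), show hosts that fell, did not pass or rose. Capitals mark a C followed by at least 5 C or T bases. The Gas5 window is that of its second listed start.
Snhg8, chr3:123508316-123508356, minus strand: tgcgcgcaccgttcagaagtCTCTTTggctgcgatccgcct
2410006H16Rik, chr11:62602857-62602897, plus strand: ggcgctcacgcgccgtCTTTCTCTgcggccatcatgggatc
Gas5, chr1:161035146-161035186, plus strand: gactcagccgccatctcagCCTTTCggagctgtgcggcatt
Snhg15, chr11:6528740-6528780, minus strand: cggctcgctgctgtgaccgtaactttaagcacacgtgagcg
Zfas1, chr2:167062914-167062954, plus strand: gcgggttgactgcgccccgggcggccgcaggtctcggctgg

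Of 11 host genes with a RefSeq window, 6 had such a tract near a listed start and 5 had none. Snhg8, the host that fell, was among the 6, and the others of the 6 did not pass. Gas5 had the tract at its second listed start and not at its first. Zfas1 and Snhg15, the hosts that rose, were among the 5, together with Snhg1, Snhg5 and Snhg17, which did not pass. Over all RefSeq starts, 31.4% of windows of this length held such a tract. Among the windows of all tested lncRNA genes, hosts included, 34 of 68 did, so a match alone is common. The count of host genes is not on the same footing, because a match at any listed start was enough. A listed start may differ from the start used in these cells, and the missing tract says only that these letters are not in this window.

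Among the falls, 2310040G24Rik, a lincRNA, had 9.36, 15.1 and 13.3 CPM in tMCAO pools and 29.5, 22.2 and 30.2 CPM in sham pools. All tMCAO pools were well below all sham pools, with a log2 fold change of -1.23 ± 0.26 (edgeR adjusted p = 0.00647). Gm38843, a lincRNA whose nearest coding gene encodes the glycolytic enzyme hexokinase, Hk2, had 42.4, 34.0 and 45.3 CPM in tMCAO pools and 70.4, 56.7 and 79.2 CPM in sham pools. Its groups were also apart, with a log2 fold change of -0.87 ± 0.20 (edgeR adjusted p = 0.00915). Hk2 had a log2 fold change of -0.07 ± 0.14 (edgeR adjusted p = 0.774).

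The 28 tested genes with a NONCODE ID alone gave 5 falls and no rise, with a median log2 fold change of -0.27. The 5 are 17.9% of the 28, near the 18.1% called in either direction over everything tested. By direction, falls were 8.96% and rises 9.17% of everything tested. The median was also below 0 for the authors' other loci without a gene name, at -0.26 for loci outside the annotation and -0.45 for lncRNA loci outside it. NONMMUG043088.2 had 79.3, 71.7 and 74.6 CPM in tMCAO pools, against 124, 108 and 123 CPM in sham pools. The spread within each group was small beside the gap, and the log2 fold change was -0.77 ± 0.16 (edgeR adjusted p = 0.00523). NONMMUG013776.2 had 17.2, 10.8 and 9.59 CPM in tMCAO pools and 24.9, 27.4 and 31.4 CPM in sham pools, a log2 fold change of -1.27 ± 0.26 (edgeR adjusted p = 0.00569). The other 3 falls each lost the call without sham pool 1, without tMCAO pool 2 and without 1 to 3 further libraries (edgeR adjusted p 0.0515 to 0.124, beside 0.01003 to 0.149 over the alternatives). These IDs have no name or role in the reference tables used.

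Gm27168 had 3.45, 3.23 and 3.20 CPM in tMCAO pools and 13.5, 7.13 and 7.65 CPM in sham pools. Sham pool 1 was highest, and the log2 fold change was -1.61 ± 0.40 (edgeR adjusted p = 0.0155). Without sham pool 1 it was -1.30 (adjusted p = 0.0950), and without tMCAO pool 2 it was -1.56 (adjusted p = 0.0560), each with 1 library fewer. The adjusted p ran from 0.00949 to 0.0950 over the 16 alternatives. Gm15523, which overlaps the span of Asb2 on the opposite strand, had 2.95, 3.77 and 2.66 CPM after tMCAO and 11.0, 7.53 and 7.65 CPM after sham surgery. It was again highest in sham pool 1. Its log2 fold change was -1.58 ± 0.39 (edgeR adjusted p = 0.0136), and without sham pool 1 it was -1.41 (adjusted p = 0.0752), with a range of 0.00773 to 0.0891 over the alternatives.

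Gm16192 had 7.39, 6.47 and 7.46 CPM in tMCAO pools and 13.9, 11.1 and 13.8 CPM in sham pools. Gm10790 had 89.6, 70.1 and 94.8 CPM in tMCAO pools and 126, 99.1 and 124 CPM in sham pools. 1810026B05Rik had 38.9, 52.3 and 20.8 CPM in tMCAO pools, against 52.7, 59.1 and 68.1 CPM in sham pools. For 1810026B05Rik and Gm10790 the highest tMCAO pool nearly reached the lowest sham pool. Gm48614 had 3.94, 8.08 and 2.66 CPM after tMCAO and 10.1, 9.91 and 11.1 CPM after sham surgery. Among falls with a symbol, these 4 genes lost the call in the most left-out fits. Gm16192 lost its call whichever library was left out, and the others lost it without 5 of the 6 libraries, with adjusted p up to 0.126, 0.175, 0.135 and 0.140. Over all 16 alternatives, the highest adjusted p were 0.158, 0.175, 0.135 and 0.177. Their log2 fold changes over the left-out fits ran from -1.05 to -0.87, from -0.67 to -0.40, from -1.10 to -0.53 and from -1.71 to -0.93. Tested with all libraries, their log2 fold changes were -0.97 ± 0.30, -0.56 ± 0.18, -0.82 ± 0.26 and -1.21 ± 0.39 (edgeR adjusted p = 0.0391, 0.0476, 0.0479 and 0.0490). Gm10790 kept its call without tMCAO pool 3, 1810026B05Rik without tMCAO pool 2 and Gm48614 without tMCAO pool 2. Exons of Gm16192 overlap those of Mtus1 on the opposite strand, and exons of 1810026B05Rik overlap those of the chromatin remodeller gene Chd2 on the same strand, so reads of these pairs cannot be told apart. Mtus1 had a log2 fold change of 0.52 ± 0.17 and Chd2 one of 0.27 ± 0.19, opposite in sign to the lncRNA of the pair, and neither passed (edgeR adjusted p = 0.0537 and 0.343).

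**Figure D3:**
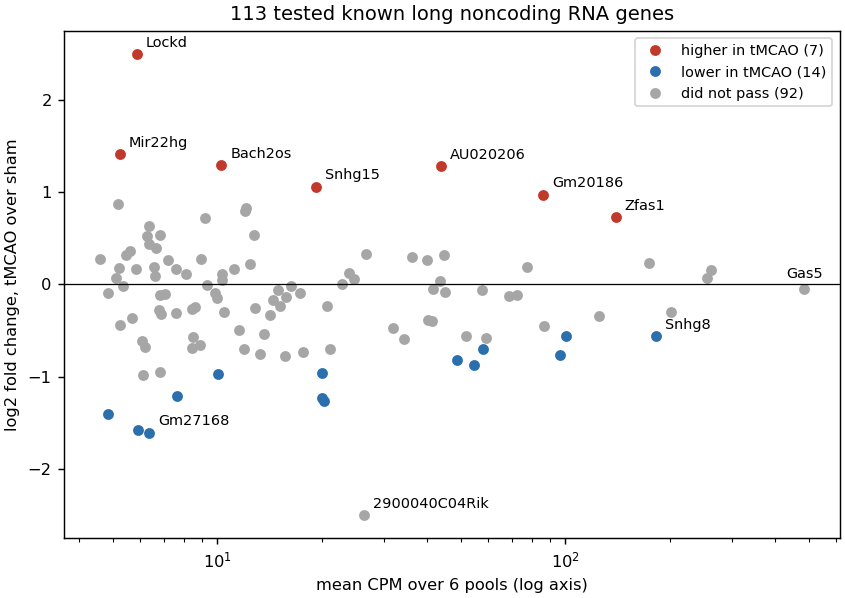
Log2 fold change of tMCAO over sham (vertical axis) against mean CPM over the 6 pools (log axis) for the 113 tested lncRNA genes, with the 7 called higher in red, the 14 called lower in blue and the 92 that did not pass in grey. Lockd has the largest rise and Gas5 lies near 0, while 2900040C04Rik has the most negative value and did not pass.

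Of the genes with the most counts, several others did not pass. E230029C05Rik had 183, 185 and 198 CPM in tMCAO pools, against 238, 199 and 206 CPM in sham pools, a log2 fold change of -0.30 ± 0.15 (edgeR adjusted p = 0.202). G530011O06Rik had 196, 175 and 213 CPM in tMCAO pools and 167, 136 and 159 CPM in sham pools, a log2 fold change of 0.23 ± 0.16 (edgeR adjusted p = 0.360). In both the groups stood apart by a narrow margin. Exons of E230029C05Rik overlap those of Eed, and exons of G530011O06Rik those of Mid1, on opposite strands. Reads of these pairs cannot be told apart. AC102342.2 had 121, 103 and 121 CPM in tMCAO pools and 132, 120 and 150 CPM in sham pools, which overlapped, with a log2 fold change of -0.34 ± 0.16 (edgeR adjusted p = 0.169).

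Genes linked to inflammation or myeloid survival gave 4 of 25 listed names (AW112010, Gm14005, Gas5 and Snhg15), all tested, of which Snhg15 rose. That is 25% of the 4, beside 18.1% called among all genes and loci, and says little about the list. Gm14005 is the mouse lncRNA Morrbid, known there for restraining the death gene Bcl2l11 in short-lived myeloid cells. It had 14.8, 15.6 and 16.5 CPM in tMCAO pools, against 10.1, 6.34 and 8.41 CPM in sham pools. Every tMCAO pool was above every sham pool, but the log2 fold change of 0.80 ± 0.29 did not pass (edgeR adjusted p = 0.0753). Bcl2l11 had 16.3, 17.2 and 17.6 CPM in tMCAO pools and 9.70, 8.32 and 13.4 CPM in sham pools. It stood apart in the same direction and did not pass either (log2 fold change 0.58 ± 0.28, edgeR adjusted p = 0.168). AW112010, which is induced in activated mouse macrophages, had 30.5, 39.9 and 22.4 CPM after tMCAO and 25.7, 20.6 and 21.04 CPM after sham surgery. Its groups overlapped, with a log2 fold change of 0.34 ± 0.24 (edgeR adjusted p = 0.358).

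The list of p53, growth and cell cycle lncRNAs gave 4 of 16 names (Trp53cor1, Gas5, Snhg1 and Snhg15), all tested, with Snhg15 the 1 that rose. This is the same call as in the inflammation list, and again 25% beside 18.1% among all genes and loci. Trp53cor1, or lincRNA-p21, is a p53 target next to Cdkn1a, which encodes the cell cycle inhibitor p21. Trp53cor1 had 8.37, 7.55 and 5.86 CPM in tMCAO pools and 12.7, 10.3 and 8.80 CPM in sham pools, with every tMCAO pool lower. Its log2 fold change of -0.66 ± 0.32 did not pass (edgeR adjusted p = 0.176). Cdkn1a had 132, 130 and 85.2 CPM in tMCAO pools and 19.4, 19.03 and 22.2 CPM in sham pools. It rose by 2.39 ± 0.20 on the log2 scale (edgeR adjusted p = 1.29e-05), a direction opposite to the fold change of its neighbour.

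Positions in GENCODE M21 put 84 of the lncRNA genes in overlap with a coding gene or start to start within 1000 bases of one, in 104 pairs. In 44 pairs both genes were tested. Zfas1 and Znfx1 were the 1 pair in which both were called, in the same direction. In 5 pairs the lncRNA alone was called, and in 9 the coding gene alone. Coding genes were called in 10 of the 44 pairs (22.7%, beside 18.1% over everything tested), 7 higher and 3 lower. In 1 of the 9, Pigb, whose product takes part in making lipid anchors of membrane proteins, fell by 1.82 on the log2 scale (edgeR adjusted p = 0.000315). The lncRNA opposite it, 2310009A05Rik, had a log2 fold change of -0.59 and did not pass (edgeR adjusted p = 0.0785). In another, Api5, which encodes an inhibitor of apoptosis, rose by 1.01 (edgeR adjusted p = 0.00485), while 2810002D19Rik opposite it had a log2 fold change of -0.78 that did not pass (edgeR adjusted p = 0.0532). Zfp652, a zinc finger gene, fell by 0.73 (edgeR adjusted p = 0.0195), a call lost without sham pool 1, sham pool 3 or tMCAO pool 2 (adjusted p up to 0.0848). Zfp652os, opposite it, had a log2 fold change of -0.54 and did not pass (edgeR adjusted p = 0.169). In these 3 pairs exons overlap on opposite strands, so here too reads of the lncRNA and the coding gene cannot be told apart. Leaving out the lncRNA genes whose exons are known to overlap a coding gene left 86 tested, of which 4 rose and 12 fell. The called were 18.6% of the 86, beside 18.1% of all genes and loci. The 28 tested genes with a NONCODE ID alone were kept, because their overlap with coding genes is not known.

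Lists for lncRNAs of the nucleus and X inactivation (10 names) and for imprinted lncRNAs (11 names) each gave Jpx alone, an activator of Xist. Jpx stood on both lists but belongs to X inactivation, so no imprinted lncRNA was found among the known lncRNA genes described here. The lists were matched to these genes alone. A listed name that was not found may stand under another type, and is not shown to be absent from these pools. Jpx had no count in the 3 tMCAO pools, against 2, 3 and 7 counts in the sham pools, at least 3.07-fold lower if 3 counts are allowed over the tMCAO group. 2810408I11Rik had 6, 3 and 4 counts after tMCAO and none after sham surgery, at least 5.65-fold higher on the same floor of 3 counts over the group. Both were too low for the test. The list of lncRNAs of neurons and other neural cells gave 3 of 24 names (Pantr1, 2810468N07Rik and 1700020I14Rik). 1700020I14Rik was tested and did not pass, with 25.6, 21.6 and 24.0 CPM in tMCAO pools and 20.2, 23.8 and 21.4 CPM in sham pools (edgeR adjusted p = 0.999). Pantr1, a lncRNA of the developing brain, had 1, 2 and 1 counts after tMCAO and 14, 22 and 8 counts after sham surgery.

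Several lncRNA genes, most of them with few counts, were highest in sham pool 2. Among lncRNA genes with at least 20 counts in all, 11 were at least 1.5 times higher in sham pool 2 than in any other library, against 1 to 6 in the other libraries. The same count over all genes and loci is not given here, so the 11 cannot be called particular to lncRNA genes. 2900040C04Rik had 7.39, 7.01 and 11.2 CPM in tMCAO pools and 28.7, 84.8 and 18.7 CPM in sham pools. Its groups did not overlap, but its log2 fold change of -2.50 ± 0.73 did not pass (edgeR adjusted p = 0.0746, with a range of 2.09e-05 to 0.225 over the 16 alternatives). It did pass without sham pool 2 (log2 fold change -1.55, edgeR adjusted p = 0.0107), without sham pool 3 (-2.89, adjusted p = 0.0170) and with DESeq2, which gave the lowest p of that range. Gm29538 had 0, 0 and 3 counts after tMCAO and 10, 28 and 5 after sham surgery, and A330048O09Rik had 0, 1 and 4 after tMCAO and 9, 23 and 4 after sham surgery. Gm20501 had 4, 1 and 4 counts after tMCAO and 8, 27 and 9 after sham surgery. With no filter on low counts edgeR called 29 of the 199 genes (14.6%), 10 higher and 19 lower, beside 12.7% of all genes and loci in that fit. Of these, 11 were not in the filtered test, Pantr1, Gm29538, A330048O09Rik and Gm20501 among them.

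Markers of some other cell types were highest in the same library, and those of others were not. The choroid plexus list (4 of 4 found, none at 0) summed to 2265 to 9927 CPM in tMCAO pools and 8592 to 44469 CPM in sham pools, highest in sham pool 2. Erythroid markers summed to 215 to 380 CPM in tMCAO pools and 955 to 6040 CPM in sham pools. Oligodendrocyte markers summed to 101 to 294 CPM in tMCAO pools and 151 to 978 CPM in sham pools, and astrocyte markers to 63.0 to 88.4 CPM in tMCAO pools and 136 to 406 CPM in sham pools. All 3 lists were also highest in sham pool 2. Microglial markers, all 7 found, summed to 21664 to 23981 CPM in tMCAO pools and 22271 to 23460 CPM in sham pools, with 1 of them lower in the test, while neuronal markers summed to at most 7.88 CPM in tMCAO pools and 13.1 CPM in sham pools. Monocyte markers summed to 62.3 to 165 CPM in tMCAO pools and 21.8 to 24.5 CPM in sham pools, and markers of border macrophages to 267 to 336 CPM in tMCAO pools and 127 to 158 CPM in sham pools. Of tested markers, 3 of 4 for monocytes and 3 of 5 for border macrophages rose, while 2 of 4 for astrocytes, 1 of 5 for oligodendrocytes and 1 of 5 for neutrophils fell. None of the 4 choroid plexus, 3 erythroid and 4 endothelial markers tested passed, and no neuronal marker was tested. Neutrophil markers summed to 368 to 1671 CPM in tMCAO pools and 1682 to 2170 CPM in sham pools, and endothelial markers to 62.1 to 153 CPM in tMCAO pools and 76.3 to 106 CPM in sham pools. The neuronal list was highest in sham pool 1, the neutrophil list in sham pool 3 and the endothelial list in tMCAO pool 2. The monocyte, border macrophage and microglial lists were highest in tMCAO pool 1. The part of these cell types in the lncRNA differences was not tested.

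**Figure D4:**
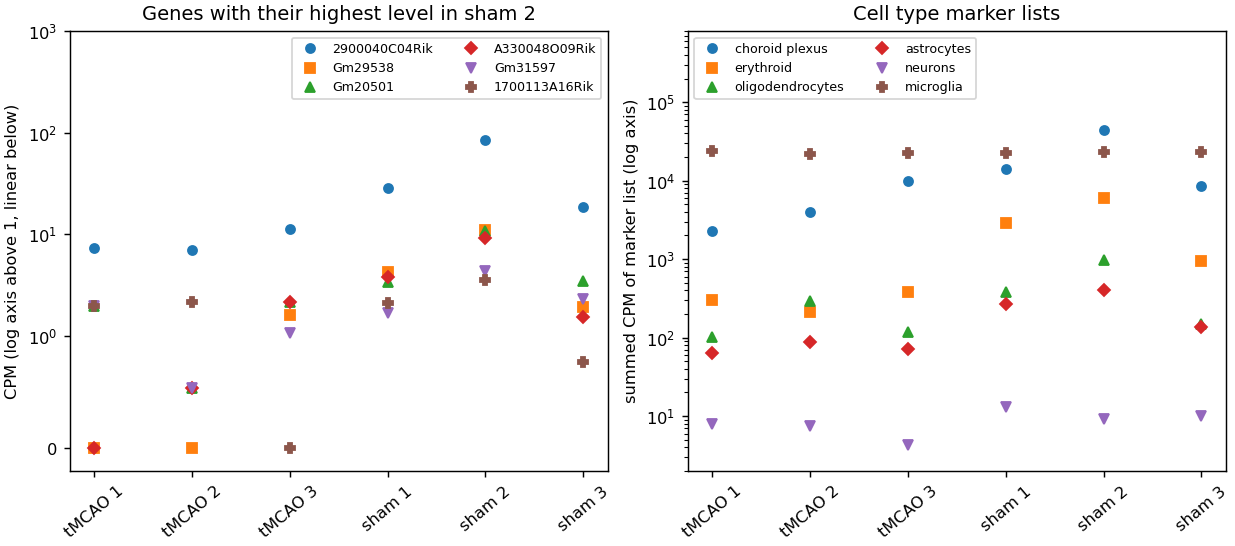
Left, CPM in each pool (axis logarithmic above 1 and linear below) of the 6 lncRNA genes with a symbol that were at least 1.5 times higher in sham pool 2 than in any other library. Right, summed CPM (log axis) of 6 cell type marker lists in the same pools, where the choroid plexus list reaches 44469 CPM in sham pool 2 and the microglial list stays between 21664 and 23981 CPM.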

How the data were processed

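The authors deposited 1 gene-level table with raw read counts per library and, per the file headers, CPM columns beside them; the deposited CPM equalled counts scaled by library totals to within 4.87e-06. Per the submitters' processing notes, minimap2 was used. Its version, the genome build, the gene models, how reads were counted and whether strand was used are not stated by the labels or the file headers. Per the labels' protocols, libraries were made from total RNA with a PCR-based nanopore cDNA kit; PCR reads without molecular identifiers are not independent molecules. Of 38219 lines, 12 held no values and were left out. Library totals were 1855495 to 2614512 counts.

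Counts were tested with edgeR 4.0.16 (R 4.3.3): filterByExpr (minimum count 10, minimum total 15), TMM scaling, robust quasi-likelihood fit with group as the only term. The biological coefficient of variation was 22.6%. SE is the fold change divided by the square root of F. Alternatives used DESeq2 1.42.0, limma 3.58.1 voom, other scalings and filters, a replicate term and left-out libraries. The code was tested on simulated data. Neighbours and gene classes came from GENCODE M21, in which all 139 Ensembl IDs were found, and sequences from RefSeq GRCm38.p6, where 89 genes had a promoter window.

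The genes and lists were chosen with earlier results of these data known. Named are all called genes (NONCODE IDs only in part), the 10 with the highest mean CPM, up to 4 of each role list and fixed names. Genes high in sham pool 2, genes with no count in a group and pairs with a coding gene were chosen after their values were seen.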

Additional observations from a re-analysis of the deposited data

How the results depend on the processing

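Against 21 called lncRNA genes (7 higher, 14 lower), DESeq2 called 12 (6 lower), limma voom 13 (4 higher, 9 lower), and scaling by library totals 16 (9 lower). In that order, these were 10.6%, 11.5% and 14.2% of the lncRNA genes tested, beside 12.9%, 14.8% and 17.9% of all genes and loci. With sham pool 1 and tMCAO pool 3 both left out, 10 were called (3 higher, 7 lower). That was 8.70% of the lncRNA genes tested, beside 11.4% of all genes and loci. Without genes whose exons are known to overlap a coding gene, an alternative chosen after seeing the data, 4 were higher. Genes with a NONCODE ID alone, whose overlap is not known, stayed in. The called were 18.6% of the lncRNA genes left, beside 18.1% of all genes and loci. Leaving out 1 library at a time gave 7 to 27 called, 2 to 8 higher and 4 to 20 lower, and a median log2 fold change of -0.2237 to -0.07622. The called were 6.14% to 21.6% of the lncRNA genes tested, beside 9.31% to 17.2% of all genes and loci. Over the same left-out libraries the difference in the share of counts was -0.0226 to 0.00622 percentage points, and it reversed to 0.000241 without tMCAO pool 1, 0.00622 without sham pool 1 and 0.00305 without sham pool 3. Replicate numbers are not said to pair the pools. Deviations of same-numbered pools correlated at -0.21, 0.02 and -0.17, so the numbers were not used as pairs. With a replicate block, 11 were called (4 higher, 7 lower), or 9.73%, beside 12.7% of all genes and loci. Over the 21 called genes and 16 alternatives (336 fits of a gene), the call was lost in 107 (31.8%) and no direction reversed. The 11 uncalled genes that were named by rule gained no call. Some genes outside that rule did, such as 2900040C04Rik and, with no filter on low counts, Gm29538. The cause was not tested, apart from fewer libraries or genes where the alternative removes them. Depth limits the 86 untested genes, which had at most 68 counts in all.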
